A study of Ovis aries with 23 samples.

Results

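VMO1 (ENSOARG00000007112), BPIFC (ENSOARG00000018081), and CALB1 (ENSOARG00000010333) are 3 of the 25197 genes counted in the pars tuberalis (PT) of sheep, and they were chosen by their read counts, which start low on short photoperiods (SPs) and are highest after 28 days of long photoperiods (LPs). They were matched by Ensembl identifier in all 23 samples. The rule that picked them used their counts in these same 4 groups. Their levels and fold changes between SPs and LPs are therefore given as a description, and no test of them is made.

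The PT is the part of the pituitary that wraps the stalk beneath the hypothalamus, and its thyrotrophs read the nightly melatonin signal and secrete thyrotropin when days are long. Libraries came from castrate male Scottish blackface sheep. The 5 SP samples had 8 hr of light per day. The LP samples had 16 hr of light per day for 1, 7, or 28 days, with 6 samples at each time. All groups share the breed, sex, and castration. The labels do not say whether each sample is 1 animal, so the spread between samples may in part be technical.

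VMO1 encodes the homolog of an outer-layer protein of the avian egg's vitelline membrane and is a secreted protein in mammals. BPIFC belongs to the family of bactericidal/permeability-increasing protein (BPI) and lipopolysaccharide-binding protein, whose fold binds lipids. CALB1 encodes a calbindin, a vitamin D-dependent EF-hand protein that buffers calcium in neurons and in kidney epithelium. The first 2 genes are thus known for secreted products, and the third acts inside the cell.

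Total counts per sample ran from 307952 to 4413929, with a median of 3332320. Expression is given as counts scaled to a common library total (CPM) after TMM normalization over all 23 samples, and 3 counts were taken as the lowest detectable level. That level was 8.90 CPM in LP day 1 sample 4, the shallowest sample, and 0.693 to 1.52 CPM elsewhere. LP day 1 samples 3 and 4 differed by a chi-square per gene of 1.14, where 1 is counting noise alone, the lowest of any pair. The measure is lower where a sample is shallow, and it was also low between sample 4 and samples 6 (1.76) and 1 (3.39) of that day. It was higher between samples 2 and 4 (7.22) and between samples 4 and 5 (5.67), which include the same shallow sample. Samples 3 and 4 were kept as 2 samples, and whether they share a source was not tested. All 5 PT thyrotroph markers (TSHB, CGA, EYA3, MTNR1A, and CHGA) were counted in every group, although not in every sample. The lowest MTNR1A count of a sample was 3 on SPs and 0, 2, and 4 at LP days 1, 7, and 28. Since the paper also reports TSHB protein in pars distalis thyrotrophs, these counts alone do not fix the PT share of a sample. The 6 pars distalis markers, headed by prolactin (PRL), summed to 34994 to 140940 CPM on SPs and 74590 to 272700 CPM at LP day 28, so the tissue held RNA of pars distalis cells in every group. In bulk samples such as these, a change in the number of cells of a type and a change in RNA per cell cannot be told apart.

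VMO1 was the most abundantly counted of the 3 genes and was present in every sample. On SPs it had 57, 31, 54, 27, and 41 counts in samples 1 to 5. At LP day 1 it had 7 to 65 counts, with a median of 34.5. The counts reached 97 to 511 at LP day 7, with a median of 233.5, and 432 to 1346 at LP day 28, with a median of 677. The lowest LP day 28 count thus lay above all but 1 of the LP day 7 counts, although the CPM ranges of these days overlapped slightly.

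In CPM, VMO1 had 12.3 ± 2.96 on SPs (SD, n = 5), and 15.8 ± 6.64, 80.0 ± 43.5, and 248 ± 70.8 at LP days 1, 7, and 28 (SD, n = 6 each). The SP range, 8.75 to 15.6 CPM, lay within the LP day 1 range, 5.34 to 23.7 CPM. Every LP day 7 sample (29.2 to 152 CPM) was above every SP sample and every LP day 1 sample. LP day 28 samples spanned 145 to 314 CPM, and only LP day 7 sample 2, at 152 CPM, reached into that range, above LP day 28 sample 4. The order of the groups was therefore SPs and LP day 1 together, then LP day 7, then LP day 28.

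The log2 fold change of VMO1 against SPs was 0.29 (standard error 0.31) at LP day 1, 2.69 (standard error 0.35) at LP day 7, and 4.32 (standard error 0.23) at LP day 28. Between LP days 7 and 28 it was 1.64 (standard error 0.29). The value at LP day 28 corresponds to 19.9 times the SP level. With each sample left out in turn, it stayed between 4.22 and 4.43.

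**Figure D1:**
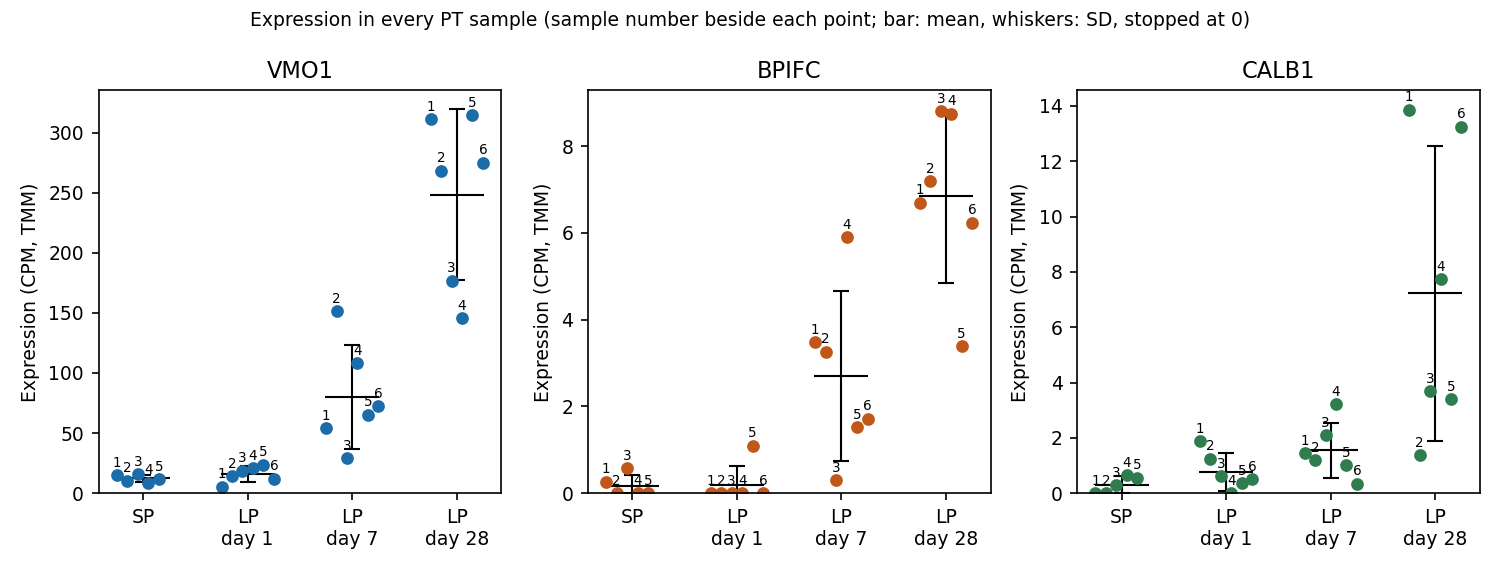
Expression of VMO1, BPIFC, and CALB1 in CPM (vertical axes from 0, with a separate scale for each gene) in the 5 SP samples and the 6 samples of each LP day, with the sample number beside each point, the group mean as a bar, and the SD as whiskers that stop at 0. VMO1 at LP day 28 sits between 145 and 314 CPM, above every SP sample, and CALB1 at LP day 28 is spread from 1.37 to 13.9 CPM.

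BPIFC was at or near 0 before LP day 7. It had 1 count in SP sample 1, 2 counts in SP sample 3, and 0 in SP samples 2, 4, and 5. At LP day 1 all 3 of its counts were in sample 5, and the other 5 samples had 0. Samples 1 to 6 had 12, 11, 1, 22, 6, and 5 counts at LP day 7 and 29, 21, 31, 26, 7, and 16 counts at LP day 28. Neither SPs nor LP day 1 had a sample with more than 3 counts, whereas every LP day 28 sample had 7 or more. LP day 7 sample 3, with 1 count, was the only sample of the later days at that level.

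In CPM, BPIFC had 0.168 ± 0.256 on SPs (SD, n = 5), and 0.182 ± 0.446, 2.70 ± 1.97, and 6.85 ± 2.00 at LP days 1, 7, and 28 (SD, n = 6 each). LP day 28 samples, from 3.39 to 8.81 CPM, did not overlap with SP samples, which reached 0.577 CPM. They overlapped with LP day 7 samples, which reached 5.91 CPM. SP and LP day 1 levels did not differ beyond their spread, and both lay below the 3-count level in all samples but LP day 1 sample 5, which stood on it. The 0 in LP day 1 sample 4 allows up to 8.90 CPM, more than the LP day 28 mean, so that library says little about BPIFC.

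Because the SP group held 3 BPIFC counts in all, the size of its rise is poorly fixed. Summed counts per total were 37.2 times higher at LP day 28 than on SPs, with an exact 95% interval of 12.5 to 183 that covers counting error only. The ratio was 15.8 at LP day 7, with an interval of 5.13 to 78.7. The fitted log2 fold change was 3.68 (standard error 0.82) at LP day 7 and 5.00 (standard error 0.56) at LP day 28. Without SP sample 3 the fitted value at LP day 28 was 5.93 and that at LP day 7 was 4.63. With a prior count of 2 the values were 3.23 and 2.11. DESeq2 gave 5.28 (standard error 0.89) at LP day 28 and 3.93 (standard error 1.04) at LP day 7. The edgeR standard error scales with the fitted value, so 0.56 understates the uncertainty left by 3 SP counts. Between LP days 7 and 28, where both groups have counts, the edgeR log2 fold change was 1.34 (standard error 0.40).

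CALB1 also began at a few counts, and its samples were the most uneven at LP day 28. On SPs it had 0, 0, 1, 2, and 2 counts in samples 1 to 5. At LP day 1 it had 7, 4, 2, 0, 1, and 1 counts in samples 1 to 6, and at LP day 7 it had 5, 4, 7, 12, 4, and 1. The LP day 28 samples had 60, 4, 13, 23, 7, and 34 counts, in the same order. Samples 1 and 6 of LP day 28 together held most of that group's 141 counts, whereas sample 2 had 4 counts, and 3 of the LP day 7 samples had more.

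In CPM, CALB1 had 0.300 ± 0.305 on SPs (SD, n = 5), and 0.769 ± 0.676, 1.55 ± 0.999, and 7.22 ± 5.33 at LP days 1, 7, and 28 (SD, n = 6 each). LP day 28 samples ran from 1.37 to 13.9 CPM and did not overlap with SP samples, which reached 0.648 CPM. They overlapped with LP day 7 samples (0.343 to 3.22 CPM) and with LP day 1 samples (0 to 1.87 CPM). Neighboring groups in the order SPs, LP day 1, and LP day 7 overlapped throughout. Without samples 1 and 6, the other 4 LP day 28 samples had 4.05 ± 2.67 CPM (SD, n = 4).

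Summed CALB1 counts per total were 24.2 times higher at LP day 28 than on SPs, with an exact 95% interval of 10.1 to 75.8 for counting error only, and 5.48 times higher at LP day 7, with an interval of 2.13 to 18.0. At LP day 1 the ratio was 3.28, with an interval of 1.13 to 11.6. The fitted log2 fold change was 2.27 (standard error 0.70) at LP day 7 and 4.45 (standard error 0.73) at LP day 28, and between LP days 7 and 28 it was 2.19 (standard error 0.52). When single samples were left out, the value at LP day 28 ran from 4.12 to 4.84. A prior count of 2 lowered it to 3.11, and the LP day 7 value to 1.29. DESeq2 gave 4.60 (standard error 0.83) at LP day 28 and 2.39 (standard error 0.90) at LP day 7, with larger errors than edgeR.

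The small LP day 1 excess of CALB1 was not seen across the whole series. The alignment folder numbers in the file headers recur between samples numbered 1 to 3 and samples numbered 4 to 6, which are treated here as 2 library sets. Neither the labels nor the headers name a batch, so this division is an inference. In the first set, CALB1 had 1 count on SPs and 13 at LP day 1, but in the second set it had 4 counts on SPs and 2 at LP day 1. In CPM the second set had 0.606 ± 0.0593 on SPs (SD, n = 2) and 0.290 ± 0.261 at LP day 1 (SD, n = 3). That set holds the shallowest sample, LP day 1 sample 4, and its counts are too few to show a small excess. The sets had 77 and 64 CALB1 counts at LP day 28, which is 6.31 ± 6.64 and 8.13 ± 4.94 CPM (SD, n = 3 each). BPIFC at LP day 28 had 7.57 ± 1.11 CPM in the first set and 6.12 ± 2.68 CPM in the second, against 3 and 0 counts on SPs. VMO1 at LP day 28 had 252 ± 68.5 and 245 ± 88.4 CPM, which were 18.4 and 24.1 times the SP means of the same sets. In both sets the LP day 28 mean was above the SP mean for all 3 genes. They were picked for this rise over these same samples, so the sets are no replication of it. VMO1 at LP day 1 stood at 0.926 times the SP mean in the first set and at 1.86 times in the second.

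As a share of the LP day 28 mean, LP day 7 expression was 32.2% ± 17.5 for VMO1, 39.4% ± 28.7 for BPIFC, and 21.5% ± 13.8 for CALB1 (SD, n = 6 each). LP day 1 expression was 6.36% ± 2.67, 2.66% ± 6.52, and 10.7% ± 9.37, respectively. The SDs of the 3 genes overlap at each of these days, and no order of onset among them was tested or is read here. These SDs also leave out the spread at LP day 28 itself, where the SD was 28.5%, 29.2%, and 73.9% of the mean for VMO1, BPIFC, and CALB1. All 3 had their highest group mean at LP day 28, which is the pattern they were picked for.

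**Figure D2:**
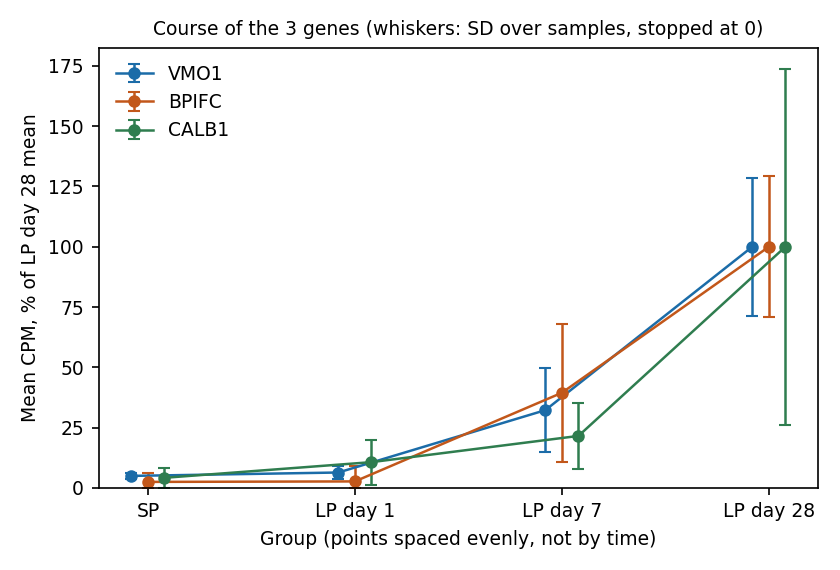
Mean CPM of VMO1, BPIFC, and CALB1 in each group as a percentage of the gene's own LP day 28 mean, with SD over samples as whiskers that stop at 0 and groups spaced evenly along the horizontal axis. At LP day 7 the means stood at 32.2%, 39.4%, and 21.5%, and the whiskers of the 3 genes overlap.

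Among the 14929 genes tested between SPs and LP day 28, BPIFC ranked 1, CALB1 ranked 3, and VMO1 ranked 4 by log2 fold change. ARNTL2, a clock transcription factor of the BMAL family, ranked 2. In the LP day 7 comparison, BPIFC ranked 3, VMO1 ranked 10, and CALB1 ranked 16 of 15030 genes. Between LP days 7 and 28, CALB1 ranked 2, VMO1 ranked 9, and BPIFC ranked 26 of 14890 genes. At LP day 1, VMO1 ranked 1720 of 14920 genes, and the other 2 genes were too low to be tested. These ranks describe the choice of the genes, and the order of the 3 depends on the prior count added before the log: with a prior count of 2, VMO1 had 4.25, BPIFC 3.23, and CALB1 3.11 on the log2 scale between SPs and LP day 28, which puts VMO1 ahead. The median log2 fold change of all tested genes was -0.01 at LP days 7 and 28.

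Only genes above 1 CPM in enough samples to fill the smaller of the 2 groups were tested. By that filter 1 of the 3 genes was tested at LP day 1 and all 3 were tested in the other comparisons. BPIFC and CALB1 had no SP sample above 1 CPM and passed through their LP samples, so they had to differ. Every LP day 28 sample was above every SP sample for 3 of the 3 genes, where 1.11% of all tested genes had that pattern. This was so of 1 of the 3 genes (VMO1) at LP day 7, against 1.26% of all tested genes, and between LP days 7 and 28 none had it, against 0.141%. At LP day 1 none had it, against 0.0871%.

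The 3 genes also differed in their spread between samples of a group, which is described here without a test. If samples of a group differed by counting noise alone, the variance of their counts would equal the mean, a ratio of 1. For BPIFC at LP day 28 this ratio was 1.15, close to counting noise, although it was 5.06 at LP day 7. For CALB1 it was 12.5 at LP day 28 and 2.20 at LP day 7. For VMO1 it was 88.3 at LP day 28 and 72.4 at LP day 7, and since the ratio grows with the number of counts, the genes are better compared by edgeR's dispersion. In the fit of SPs and LP day 28 the biological coefficient of variation was 21.9% for VMO1, 27.1% for BPIFC, and 55.1% for CALB1. The dispersion of CALB1 was at the 96.6th percentile of 1663 genes with like abundance (within 0.5 of its log2 CPM), that of VMO1 was at the 95.3rd percentile of 1350 genes, and that of BPIFC was at the 25.8th percentile of 1649 genes. These places moved with the groups fitted. In the fit of SPs and LP day 7, BPIFC was at the 89.3rd percentile with a coefficient of variation of 56.0%, and CALB1 at the 56.8th with 41.0%, so their order was the reverse. In the fit of LP days 7 and 28, BPIFC was at the 86.7th percentile (38.5%) and CALB1 at the 97.4th (53.9%). VMO1 was at the 98.4th and 98.9th percentiles in these fits, and so was more uneven than most genes of its abundance in each of the 3 fits.

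Whether samples high in one gene were also high in another was asked within each LP day, which leaves out the difference between days. For 3 gene pairs and 3 days, 9 correlations of log2 CPM were computed, and none had an adjusted p under 0.05 in a two-sided exact permutation test (Benjamini-Hochberg over the 9), the lowest adjusted p being 0.275. VMO1 and BPIFC at LP day 7 had a Pearson r of 0.78 (exact permutation p = 0.0708, adjusted p = 0.275, n = 6) and a Spearman rho of 0.54 (exact permutation p = 0.297, adjusted p = 0.75). Without the 2 samples farthest from the median of VMO1, r was 0.56. LP day 7 sample 3 was the lowest in both genes. At LP day 28 the same pair had a Pearson r of -0.73 (exact permutation p = 0.0917, adjusted p = 0.275, n = 6) and a Spearman rho of -0.89 (exact permutation p = 0.0333, adjusted p = 0.30). Without the 2 samples farthest from the median, r was -0.63, and with library-size CPM in place of TMM it was -0.52.

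**Figure D3:**
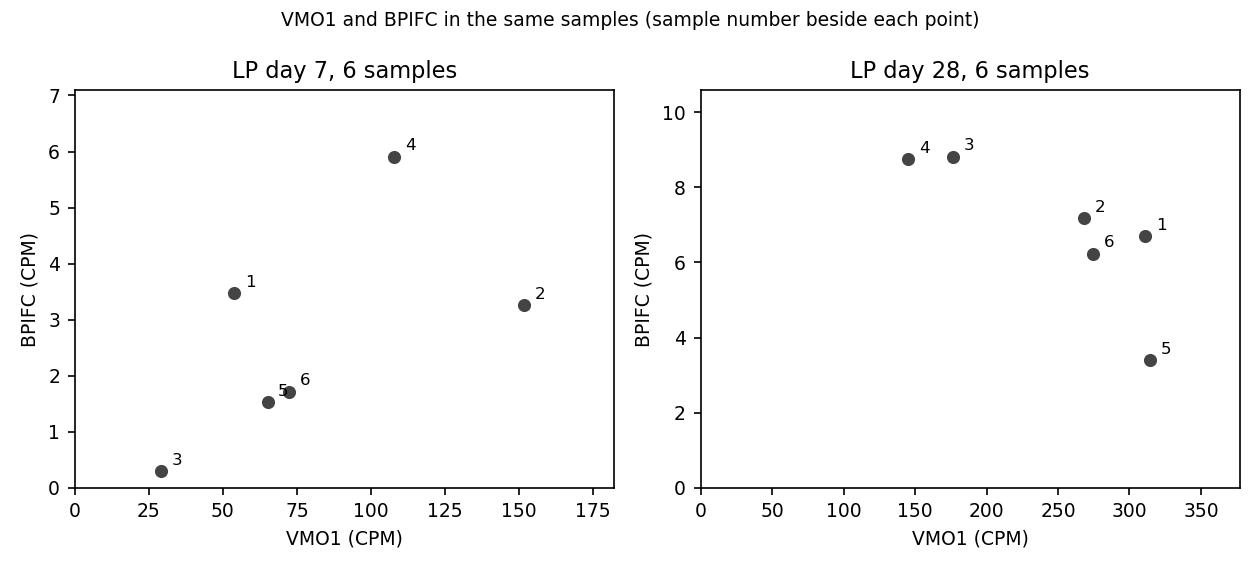
BPIFC against VMO1, both in CPM on axes from 0, in the 6 samples of LP day 7 and the 6 samples of LP day 28, with the sample number beside each point. At LP day 28 samples 3 and 4 are lowest in VMO1 (177 and 145 CPM) and highest in BPIFC (8.81 and 8.75 CPM), and sample 5 is the reverse.

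VMO1 and CALB1 had a Pearson r of -0.80 at LP day 1 (exact permutation p = 0.0625, adjusted p = 0.275, n = 6), where CALB1 rests on 0 to 7 counts and VMO1 is lowest in sample 1, which has the most CALB1. Spearman's rho there was -0.77 (exact permutation p = 0.103, adjusted p = 0.463), and without the 2 samples farthest from the median r was -0.61. With library-size CPM in place of TMM, r was -0.88 (exact permutation p = 0.0194, adjusted p = 0.175). The 2 genes had an r of -0.06 at LP day 7 and 0.04 at LP day 28 (exact permutation p = 0.929 for each, adjusted p = 0.929). CALB1 and BPIFC had an r of 0.24 at LP day 7 (exact permutation p = 0.683, adjusted p = 0.929) and 0.10 at LP day 28 (exact permutation p = 0.896, adjusted p = 0.929). The LP day 28 samples with the most CALB1, samples 1 and 6, had 311 and 275 CPM of VMO1 and 6.70 and 6.24 CPM of BPIFC, which are middle to high values for VMO1 and middle to low ones for BPIFC. The 2 pairs with BPIFC at LP day 1 rest on the 1 sample with any BPIFC count.

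Odd- and even-numbered samples of LP days 7 and 28 differ in 152 of 14890 genes, or 1.02% (edgeR's quasi-likelihood test, either direction), and the numbers played no part in the choice of the 3 genes. None of the 3 was called in this comparison. The log2 difference of even against odd numbers was 0.43 for VMO1 (standard error 0.27, FDR 0.650, edgeR), 0.53 for BPIFC (standard error 0.39, FDR 0.711, edgeR), and 0.05 for CALB1 (standard error 0.51, FDR 0.990, edgeR). None of the 3 had an unadjusted p under 0.05, the lowest being 0.134 by edgeR, and DESeq2 gave FDRs of 0.752, 0.718, and 0.986. At LP day 7 VMO1 had 49.4 ± 18.4 CPM in the odd-numbered samples and 111 ± 39.7 CPM in the even-numbered ones (SD, n = 3 each). Every even-numbered sample of that day was above every odd-numbered one, as was so of 7.37% of all genes tested that day, with the reverse in 7.80%. The odd-numbered samples were the higher ones on average at LP day 28, with 267 ± 78.4 against 229 ± 72.9 CPM (SD, n = 3 each), but their ranges overlapped, and 6.87% and 7.11% of all genes had even-numbered samples wholly above or below. For VMO1 the log2 difference was 1.16 (standard error 0.29, FDR 0.166, edgeR) at LP day 7 alone and -0.22 (standard error 0.23, FDR 0.865, edgeR) at LP day 28 alone.

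The genes most like each of the 3 were sought by Pearson's r of log2 CPM over the 23 samples among the 15652 genes that exceeded 1 CPM in 5 or more samples. Only 1259 identifiers could be given a symbol, and the pairing covers genes that the study listed as changed by photoperiod in at least 1 comparison, so a gene without a symbol is passed over. Since each gene was picked for its course over the same samples, r is a description and carries the shared rise between groups. VMO1 and BPIFC were each other's closest gene, with an r of 0.93. CALB1 ranked 29 for VMO1 (r = 0.71) and 17 for BPIFC (r = 0.73). With each sample's deviation from its group mean in place of its level, r was 0.48 between VMO1 and BPIFC, -0.25 between VMO1 and CALB1, and 0.03 between BPIFC and CALB1. The shared course across groups is what the 3 genes were picked for. The deviations include SP and LP day 1 samples, where BPIFC had at most 3 counts and CALB1 at most 7. Counting noise is large at such counts, so the low r of CALB1 does not settle whether its spread within groups was shared.

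GPLD1, an enzyme that releases GPI-anchored proteins from membranes, ranked 2 for both VMO1 (r = 0.92) and BPIFC (r = 0.91) and 15 for CALB1 (r = 0.75). Its CPM was 20.0 ± 8.98 on SPs (SD, n = 5), and 29.5 ± 9.76, 64.6 ± 24.7, and 120 ± 34.5 after 1, 7, and 28 days of LPs (SD, n = 6 each). Its deviations from the group mean followed those of VMO1 with an r of 0.61 and those of BPIFC with an r of 0.61, but the r that picked GPLD1 already holds these deviations. Next for VMO1 came ABCG2, an efflux transporter of the plasma membrane (r = 0.87), ARNTL2 (r = 0.86), and CHD1L, a chromatin remodeler (r = 0.85). The CPM of ABCG2 was 53.0 ± 9.15 on SPs (SD, n = 5), 86.3 ± 26.3 after 7 days, and 210 ± 88.7 after 28 days of LPs (SD, n = 6 each).

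The CPM of ARNTL2 was 0.281 ± 0.325 on SPs (SD, n = 5), 4.23 ± 3.16 after 7 days, and 7.41 ± 3.48 after 28 days of LPs (SD, n = 6 each). Its deviations from the group mean had an r of 0.04 with VMO1 and -0.03 with BPIFC. For BPIFC the list went on with GNPTAB, a subunit of the enzyme that tags lysosomal enzymes with mannose phosphate (r = 0.83), CHD1L (r = 0.81), and ARNTL2 (r = 0.81).

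The genes most like CALB1 had lower coefficients and were mostly others. The closest gene, with an r of 0.86, was ENSOARG00000005053, which has no symbol here, and 10 genes without a symbol ranked above the fifth named one. The named ones were SPOCK2, a proteoglycan of the extracellular matrix (r = 0.78), SEL1L3 (r = 0.78), ATP8B4, a member of the phospholipid flippase family (r = 0.77), CNTN1, an adhesion protein of axons (r = 0.75), and GPLD1. The mean CPM of SPOCK2 was 260 ± 43.4 on SPs (SD, n = 5) and 486 ± 65.1 after 28 days of LPs (SD, n = 6), and that of CNTN1 was 149.6 ± 17.7 and 309 ± 87.1 (SD, n = 5 and n = 6). By deviations from the group mean, the r of these 5 genes with CALB1 was 0.14 to 0.46. Only 4 genes had an r over 0.8 with CALB1, compared with 9 for VMO1 and 8 for BPIFC.

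**Figure D4:**
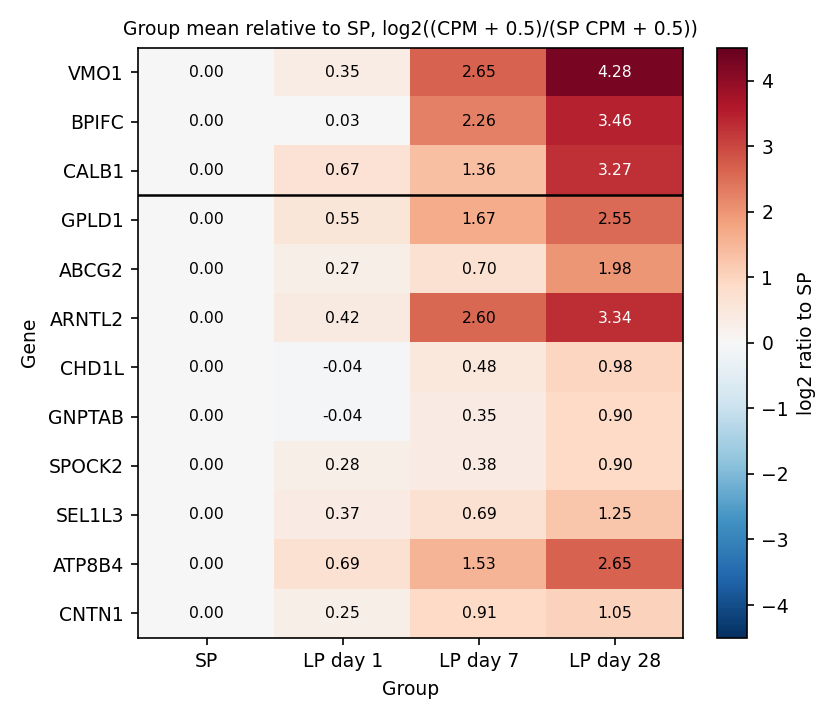
Group means of VMO1, BPIFC, and CALB1 (above the line) and of the 9 named genes whose levels were most like theirs over 23 samples (below the line), as the log2 ratio of CPM + 0.5 to the SP mean + 0.5, with red for higher and blue for lower than on SPs. ARNTL2 reaches 3.34 at LP day 28, next to 4.28 for VMO1 and 3.46 for BPIFC, whereas CHD1L and GNPTAB stay below 1.

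Of 31 EF-hand calcium-binding genes other than CALB1 that were listed, 5 could be paired with an identifier (CALB2, PVALB, SCGN, HPCA, and S100A11), all from the study's own lists of changed genes, so they are no independent sample of the family. None was called by edgeR's quasi-likelihood test in any of the 4 comparisons, where 0%, 0.266%, 0.670%, and 0.00672% of all genes were called in either direction (LP days 1, 7, and 28 against SPs, then LP day 28 against LP day 7). In the LP day 28 comparison with SPs, 4 were tested, 1 had an unadjusted p under 0.05, and DESeq2 also called 0. Their median log2 fold change there was -0.28. CALB2 (calretinin, the nearest relative of CALB1) had 24.8 ± 21.0 CPM on SPs (SD, n = 5) and 18.7 ± 11.7 CPM after 28 days of LPs (SD, n = 6). Its log2 difference between them was -0.41 (standard error 0.52, FDR 0.780, edgeR). SCGN (secretagogin, another calcium sensor) had 50.1 ± 11.8 and 53.2 ± 9.45 CPM, and S100A11 had 62.2 ± 7.04 and 55.9 ± 5.81 CPM in these groups (SD, n = 5 and n = 6). HPCA (hippocalcin, a neuronal calcium sensor) had a log2 difference of -0.74 (standard error 0.28, FDR 0.249, edgeR). None of 12 listed relatives of BPIFC and none of 10 listed genes of vitamin D action and calcium transport could be paired, and they were not analysed here.

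Of 10 listed genes tied to the photoperiod response of PT thyrotrophs, 9 could be paired, again from the study's own lists. After 28 days of LPs, 3 of the 9 rose against SPs and 1 fell by edgeR's test, next to 0.422% of all genes higher and 0.248% lower. Of the 9, 7 had an unadjusted p under 0.05 (edgeR), and DESeq2 called 5. TSHB was not called by edgeR, at 1.75 (standard error 0.41, FDR 0.0615, edgeR) on the log2 scale. EYA3, the coactivator of the thyrotropin beta gene, rose by 2.57 (standard error 0.57, FDR 0.0481, edgeR) on the log2 scale, close to the threshold. Its LP day 28 samples ran from 37.6 to 471 CPM, a wider relative spread than that of CALB1. CHGA was the gene called as lower, and SHH and DCT were the others called as higher. After 7 days 2 rose and 1 fell, next to 0.193% of all genes higher and 0.0732% lower. At that time 5 of the 9 had an unadjusted p under 0.05 (edgeR), and DESeq2 called 4. After 1 day none was called (2 at an unadjusted p under 0.05, and 1 by DESeq2). DCT was the 1 gene of the list called between LP days 7 and 28, and it fell. Of the 9, 5 had an unadjusted p under 0.05 (edgeR), and DESeq2 called 2. The list moved in both directions over these days. TSHB had a log2 difference of 1.02 (standard error 0.24, FDR 0.244, edgeR) and CHGA -0.54 (standard error 0.14, FDR 0.335, edgeR). The fitted changes of CGA, TEF, and PDE10A were also upward, and those of SHH, EYA3, and MTNR1A were downward. The fitted change of each of VMO1, BPIFC, and CALB1 over these days was upward.

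Markers of other cell types were examined beside these values. The summed 6 pars distalis markers had a median of 125161 CPM on SPs and medians of 64409, 95593, and 177026 CPM after 1, 7, and 28 days of LPs, and none was called in any of the 4 comparisons (3 at an unadjusted p under 0.05 at LP day 28 against SPs, 0 by DESeq2). The ranges of this sum overlapped between all groups. Its members moved in different directions between SPs and LP day 28. PRL had a log2 difference of 1.09 (standard error 0.37, FDR 0.192, edgeR). LHB had -0.39 (standard error 0.15, FDR 0.244, edgeR) and FSHB -0.76 (standard error 0.24, FDR 0.158, edgeR). GH1, POU1F1, and POMC had -0.05, 0.51, and -0.08. The 3 paired folliculostellate and glial markers (S100B, VIM, and GFAP, of 4 listed) summed to 887 to 1877 CPM on SPs and 1023 to 1345 CPM at LP day 28. EPCAM, the 1 paired of 5 epithelial markers, had 186 to 293 CPM on SPs and 211 to 334 CPM at LP day 28, and PTPRC, the 1 paired of 4 immune markers, had 8.80 to 91.7 and 21.3 to 87.6 CPM. No marker of these lists was at 0 over a whole group. The part of these cells in the rise of the 3 genes was not tested. Markers of neurons, tanycytes, endothelium, and red blood cells could not be paired and were not analysed here.

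For each gene, 2 neighbors on either side were taken from the ARS-UI_Ramb_v3.0 assembly, used for gene order alone because the counts were made on another assembly. VMO1 lies between GLTPD2 and TM4SF5, BPIFC between RTCB and FBXO7, and CALB1 between TMEM64 and DECR1. Of the 12 neighbors, 1 could be paired, ZMYND15, which follows TM4SF5 on that side of VMO1. The CPM of ZMYND15 was 9.76 ± 1.76, 19.9 ± 9.76, and 26.8 ± 13.2 after 1, 7, and 28 days of LPs (SD, n = 6 each). Against SPs its log2 difference after 28 days was 1.14 (standard error 0.32, FDR 0.111, edgeR), which did not pass the threshold. Whether the counting used strand is not given in the sources used here, so reads of an overlapping or antisense transcript may be counted with these genes.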

How the data were processed

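RNA-seq counts of reads per Ensembl sheep gene were used as the authors deposited them, 1 table per sample for 25197 genes. The labels name Bowtie, HTSeq, and the Oar_v3.1 genome build without versions, whereas the file headers have the form that featureCounts writes, and the program that made the counts was not settled. Groups came from the sample titles.

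All fits used edgeR 4.0.16 under R 4.3.3. Each comparison took in only its 2 groups, with TMM normalization, genes above 1 CPM in enough samples to fill the smaller group, and the quasi-likelihood test. A gene was called when its Benjamini-Hochberg FDR over all genes tested was under 0.05. A standard error is the size of the log2 fold change over the square root of its F statistic. It therefore scales with the fold change and can be too small where a group is near 0 counts. CPM of single samples is normalized over all 23 samples, and correlations use log2 CPM with a prior count of 2. Intervals of count ratios are Clopper-Pearson intervals. Since reads carry no molecular identifiers, intervals and floors cover counting error only.

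The genes, lists, and tests were chosen with earlier results of these data known. Genes named beside the 3 are, by rule, the 5 most alike to each with a symbol, 2 neighbors on each side, and list members called in a comparison or otherwise up to 4 highest expressed. Symbols were paired through the study's gene lists (1259 identifiers, with 29 symbols on more than 1 identifier), without using any value in them. Alternatives were DESeq2 1.42.0, other normalizations, no filter, SP samples 2, 3, and 5 alone, a replicate block, all groups in a single fit, and each sample left out. The library set as a covariate was added after seeing the data. Sequences, and thus promoter motifs, were not used here.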

Additional observations from a re-analysis of the deposited data

Results flagged for a closer look

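Of 12 sets of values (3 genes in 4 groups) examined for a sample far from the others, 1 had one. BPIFC at LP day 1 stood at 1.09 CPM in sample 5, from 3 counts, and at 0 CPM in the other 5 samples. With all other samples at 0, the gap to the nearest sample is the whole range whatever the count, so this says nothing of whether the sample stands apart. The value equals the lowest detectable level of that library, and whether it differs from 0 by more than counting error was not tested.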

How the results depend on the processing

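The 3 genes were picked for a rise in these same samples, so a kept direction is no separate support for it. The log2 fold changes of VMO1 kept their direction and moved by less than the spread between samples in every alternative run. Those of BPIFC and CALB1 kept their direction in all alternatives that tested them. A prior count of 2 lowered them to 2.11 (BPIFC) and 1.29 (CALB1) at LP day 7 and to 3.23 and 3.11 at LP day 28, since the prior sets the SP level of genes near 0. With each sample left out, BPIFC ran from 3.39 to 4.63 at LP day 7 and from 4.72 to 5.93 at LP day 28, both highest without SP sample 3, and at LP day 7 each of BPIFC and CALB1 was too low to be tested in 5 of the 11 such fits. Counts of called genes moved far more. Against SPs, DESeq2 called 2, 357, and 346 genes at LP days 1, 7, and 28, where edgeR called 0, 40, and 100, and it called 36 between LP days 7 and 28, where edgeR called 1. Library size only gave 24 genes at LP day 7 against SPs and 6 between LP days 7 and 28, no filter gave 8 and all groups in one fit gave 4 between these days, and SP samples 2, 3, and 5 alone gave 6 and 48 at LP days 7 and 28. With each sample left out, the counts ran from 0 to 4, 7 to 113, and 41 to 110 at the 3 LP days, and from 1 to 5 between LP days 7 and 28. The extremes came without SP sample 2 (4 and 41 genes at LP days 1 and 28), without SP sample 4 or LP day 7 sample 6 (7 and 113 genes at LP day 7), and without LP day 7 sample 3 or LP day 28 sample 2 (5 genes each). The causes were not tested. Same-numbered samples deviated together little (r from -0.17 to 0.23), so the numbers were not taken as pairs in the main fits. Between SPs and LP day 7, though, 3 of 5 same-numbered pairs were best matches, compared with 0 of 5 at LP days 1 and 28. Between LP days 7 and 28 this was so of 1 of 6. Whether the numbers pair the samples was not tested. With the sample number as a replicate block, 0, 165, and 40 genes were called at the 3 LP days and 6 between LP days 7 and 28, and VMO1, BPIFC, and CALB1 had log2 fold changes of 4.26, 5.05, and 4.09 at LP day 28.

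Between odd and even numbers, DESeq2 called 264 genes, LP day 7 alone 61, and LP day 28 alone 21, against 152. The uncalled difference changed sign at LP day 28 alone for VMO1 (-0.22) and CALB1 (-0.010), and with a sample left out it ran from -0.34 to 0.63 for CALB1. Without the 2 farthest samples, r changed sign for VMO1 and CALB1 at LP day 7 (0.54) and for BPIFC and CALB1 at LP day 28 (-0.27). For the 2 pairs with BPIFC at LP day 1 it could not be computed. Depth limits BPIFC and CALB1 on SPs and at LP day 1, where changes of a few counts were not detectable.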
